A study of Mus musculus with 36 samples.

Results

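The 10 genes described here encode transcription factors of the B cell lineage: *Pax5*, *Ebf1*, *Tcf3*, *Ikzf1*, *Ikzf3*, *Spi1*, *Spib*, *Foxo1*, *Pou2af1* and *Pou2f2*. They were chosen by name, and the strand-aware start of each gene fixed its place, as 10 of the 22350 protein-coding genes of the annotation. The values are the replication timing (RT) state of the domain that covers each start, the length of that domain, and the distance from the start to its nearest end. *Spi1* carries the older symbol *Sfpi1* in the annotation, and the other 9 genes were found by symbol.

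Repli-seq was used to measure RT: BrdU marks newly made DNA, and cells are sorted by DNA content into early and late S phase. The series holds 36 Repli-seq libraries in 7 groups, of which 2 groups with 8 libraries were used here and 5 were not analysed. The shLacZ CH12 group is a mouse B lymphoma line with a lentiviral shRNA against LacZ, the infection control, grown with IL4, CD40 and TGF beta stimulation, and the methods name it as 1 clone, so it need not stand for B cells in general. The WT primary B group is activated splenic B cells from *Rif1*+/+ mice. Each group has 2 replicates of an early and a late fraction. The methods describe technical replicates sorted for each fraction, and elsewhere biological replicates from separately thawed vials of CH12 cells. The sample titles do not say which kind these are. The remaining map, named for WT mouse embryonic fibroblasts (MEFs), is tied by the labels to no sample, and the number of libraries behind it is not known here.

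Each map cuts the genome at 20 kb steps into domains called early (E), middle (M) or late (L). The authors pooled replicates ahead of calling domains. A condition thus has 1 map, no value has a replicate error, and no test between conditions was made. The maps hold neither RT values nor read depth. They also hold no gene expression, so the labelled cell types could not be checked against marker genes. In all 3 maps 0 E domains touched an L domain, and the density of protein-coding gene starts fell from E to M to L, from 18.9 to 8.41 to 3.76 per Mb in CH12 cells, from 17.6 to 7.77 to 2.88 in primary B cells and from 16.1 to 6.48 to 3.29 in MEFs.

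B cells arise from blood progenitors through an ordered set of transcription factors. E proteins and EBF1 open the B cell program, PAX5 commits cells to it and keeps other lineages shut, and Ikaros and ETS family factors act both before and after that point. Octamer-binding factors and their coactivator serve immunoglobulin genes and the later response to antigen. Early replication generally goes with active, gene-rich chromatin, and RT domains of some loci shift during development.

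All 10 gene starts were in E in primary B cells, and none was in L in any map. In CH12 cells 8 of 10 were in E, and *Ebf1* and *Foxo1* were in M. In MEFs 8 of 10 were in E as well, but there *Pax5* and *Ikzf1* were in M. The remaining 6 genes, *Tcf3*, *Ikzf3*, *Spi1*, *Spib*, *Pou2af1* and *Pou2f2*, were in E in all 3 maps. Of all protein-coding genes, 50.6% were in E in CH12 cells, 58.0% in primary B cells and 58.6% in MEFs, and 22.1%, 12.9% and 11.9% were in L. The pattern of the 6 genes was shared by 43.9% of all protein-coding genes, that of *Pax5* and *Ikzf1* by 4.47%, and that of *Ebf1* and *Foxo1* by 5.46%.

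**Figure D1:**
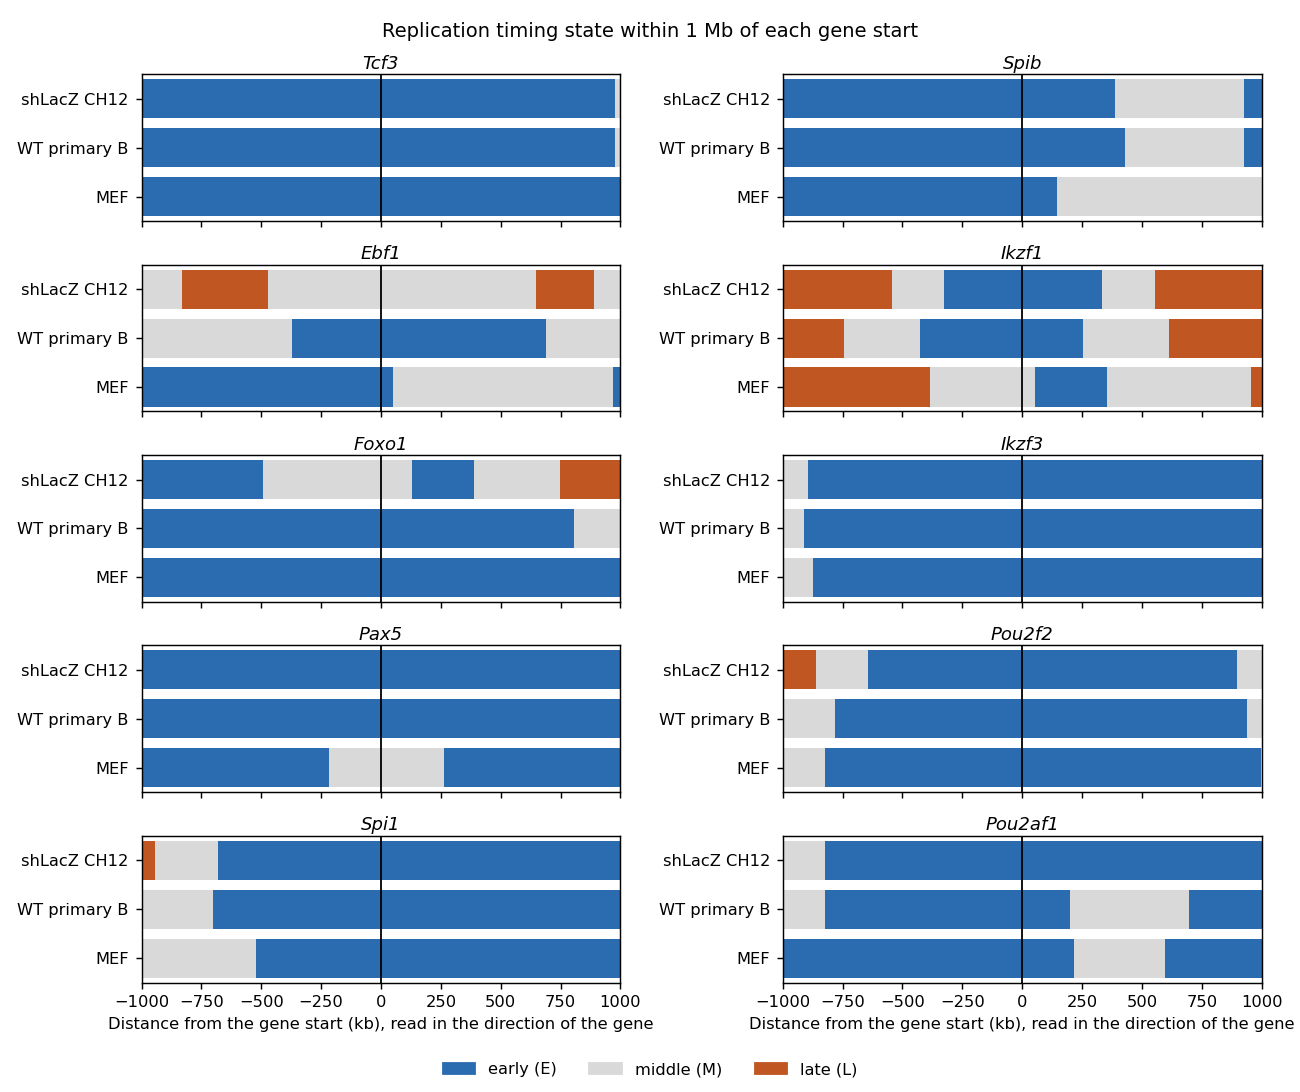
RT state within 1 Mb on each side of each gene start (vertical line) in the maps of shLacZ CH12 cells, WT primary B cells and MEFs, with the x axis in kb read in the direction of the gene and colours for E, M and L. *Ebf1* and *Foxo1* start in M in CH12 cells, *Pax5* and *Ikzf1* start in M in MEFs, and all 10 start in E in primary B cells.

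The 250 bases before the start are shown for the 4 genes whose state differed between maps, and for *Tcf3* and *Spib*, 2 of the genes that were in E in all 3 maps. They were read from the mm9 genome (NCBIM37) 5′ to 3′ on the strand of the gene, and capitals mark each CG dinucleotide.
Ebf1 (chr11:44430569-44430818, plus strand): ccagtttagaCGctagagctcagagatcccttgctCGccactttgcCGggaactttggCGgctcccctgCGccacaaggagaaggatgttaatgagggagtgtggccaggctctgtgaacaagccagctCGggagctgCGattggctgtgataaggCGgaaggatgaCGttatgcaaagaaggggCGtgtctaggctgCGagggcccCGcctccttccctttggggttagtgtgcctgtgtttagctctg
Foxo1 (chr3:52072009-52072258, plus strand): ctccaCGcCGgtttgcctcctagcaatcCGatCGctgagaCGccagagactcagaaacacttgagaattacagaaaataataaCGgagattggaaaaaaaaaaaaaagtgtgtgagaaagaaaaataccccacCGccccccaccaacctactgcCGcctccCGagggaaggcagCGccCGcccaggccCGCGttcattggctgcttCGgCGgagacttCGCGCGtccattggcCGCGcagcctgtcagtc
Pax5 (chr4:44724319-44724568, minus strand): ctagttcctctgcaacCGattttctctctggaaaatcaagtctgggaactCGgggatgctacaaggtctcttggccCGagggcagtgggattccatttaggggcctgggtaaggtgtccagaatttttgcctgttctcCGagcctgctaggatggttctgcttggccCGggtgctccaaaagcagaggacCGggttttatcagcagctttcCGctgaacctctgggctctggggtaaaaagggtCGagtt
Ikzf1 (chr11:11584756-11585005, plus strand): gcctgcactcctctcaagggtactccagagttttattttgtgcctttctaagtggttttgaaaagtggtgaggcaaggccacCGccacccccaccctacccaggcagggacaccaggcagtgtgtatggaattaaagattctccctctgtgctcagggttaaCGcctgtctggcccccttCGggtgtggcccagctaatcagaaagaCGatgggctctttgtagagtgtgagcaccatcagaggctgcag
Tcf3 (chr10:79896393-79896642, minus strand): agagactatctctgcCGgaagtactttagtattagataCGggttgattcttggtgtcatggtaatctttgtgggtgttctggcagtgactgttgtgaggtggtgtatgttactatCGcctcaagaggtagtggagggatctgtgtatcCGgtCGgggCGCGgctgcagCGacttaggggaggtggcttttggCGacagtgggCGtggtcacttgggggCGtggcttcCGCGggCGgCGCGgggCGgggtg
Spib (chr7:51787442-51787691, minus strand): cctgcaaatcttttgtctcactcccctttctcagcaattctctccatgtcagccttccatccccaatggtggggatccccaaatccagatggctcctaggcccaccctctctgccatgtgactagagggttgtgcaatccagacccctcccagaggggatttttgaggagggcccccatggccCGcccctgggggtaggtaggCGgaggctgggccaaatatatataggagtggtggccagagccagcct
The CG dinucleotide, whose search reads the same on both strands, occurred 12 times before *Ebf1*, 20 times before *Foxo1*, 8 times before *Pax5*, 4 times before *Ikzf1*, 17 times before *Tcf3* and 2 times before *Spib*. Of all protein-coding genes, 92.5% had at least 1 CG in a window of this length, with a median of 8 and quartiles of 3 and 18. Of the 6 genes shown, *Foxo1* lay above these quartiles, *Spib* lay below them, and the other 4 lay between them. Protein-coding transcripts also start 15.2 kb from the position used for *Ikzf1* and 11.8 kb from that for *Tcf3*. The bases before those starts are not shown.

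*Tcf3* (chr10:79872259-79896392, minus strand) encodes the E proteins E12 and E47, which act at the entry to the B lineage. It lay in E in each map, in domains of 2360 kb in CH12 cells, 2340 kb in primary B cells and 2400 kb in MEFs. Its start was 976.4 kb from the nearest domain end in both B cell maps and 1036.4 kb in MEFs. This E domain kept nearly the same ends in all 3 maps, with shifts of at most 60 kb. It was gene dense, with 131 protein-coding starts in every map.

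*Ebf1* (chr11:44430819-44821593, plus strand) encodes early B cell factor 1, which specifies the lineage together with the E proteins. In CH12 cells its start was in an M domain of 1120 kb (chr11:43960001-45080000), 470.8 kb from the nearest end, with an L domain of 360 kb on one side and one of 240 kb on the other. The nearest E domain was 1289.2 kb away. In primary B cells the start was in an E domain of 1060 kb (chr11:44060001-45120000), 370.8 kb from its nearest end. The M domain of one map and the E domain of the other thus covered nearly the same stretch.

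In MEFs the *Ebf1* start was also in E, in a domain of 1220 kb (chr11:43260001-44480000), but only 49.2 kb from its end. The gene ran out of that domain: of the 21 bins of its body 3 were E and 18 were M in MEFs, whereas all 21 were E in primary B cells and all 21 were M in CH12 cells. The E domains of primary B cells and MEFs shared 420 kb, which is 39.6% of the former and 34.4% of the latter. The position of the state change within *Ebf1* in MEFs lies within the 300 kb span over which RT was smoothed, so it is known only to about that span.

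*Foxo1* (chr3:52072259-52154031, plus strand) encodes a forkhead factor needed in early B cell development and in activated B cells. In CH12 cells its start was in an M domain of 620 kb (chr3:51580001-52200000), 127.7 kb from the nearest end, between E domains of 520 and 260 kb. In primary B cells a single E domain of 1940 kb covered the start at 807.7 kb from its end, and in MEFs one of 2580 kb did so at 1252.3 kb. The M domain of CH12 cells thus interrupted a stretch that was E throughout in both other maps. Few genes lie here, with 2 other protein-coding starts within 500 kb, the lowest number of the 10 genes.

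*Pax5* (chr4:44544017-44724318, minus strand) encodes the factor that commits cells to the B lineage. It lay in E domains of 3480 kb in CH12 cells (chr4:43360001-46840000) and 3580 kb in primary B cells (chr4:43280001-46860000), at 1364.3 and 1444.3 kb from the nearest end, the largest such distances of the 10 genes in these maps. In MEFs it lay in an M domain of 480 kb (chr4:44460001-44940000), 215.7 kb from the nearest end. That M domain had E domains of 1600 and 1880 kb on its sides, and all 10 bins of the gene body were M. The long E domain of the B cell maps was thus split around *Pax5* in MEFs.

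*Spi1* (chr2:90922547-90955913, plus strand) encodes the ETS factor PU.1, which also serves myeloid cells. Its E domain measured 2200 kb in CH12 cells, 2240 kb in primary B cells and 3900 kb in MEFs, with the start 682.5, 702.5 and 522.5 kb from the nearest end. In MEFs the domain ran 1860 kb farther at the right end than in CH12 cells, over a stretch whose 93 bins were all M in CH12 cells. *Spib* (chr7:51781365-51787441, minus strand) encodes the related ETS factor Spi-B, found mainly in lymphoid cells. Its E domain measured 3040 kb in CH12 cells and 3120 kb in primary B cells but 1800 kb in MEFs, and its start lay 387.4, 427.4 and 147.4 kb from the nearest end. The 2 ETS genes thus had nearly the same E domain in both B cell maps, and in MEFs that of *Spi1* was longer and that of *Spib* was shorter.

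*Ikzf1* (chr11:11585006-11672929, plus strand) encodes Ikaros, a zinc finger factor of lymphoid development. Its E domain was the shortest of the 10 genes in primary B cells, at 680 kb, and the shortest E domain of the set in CH12 cells, at 660 kb. The start was 255.0 and 325.0 kb from the nearest end. In MEFs the start was in an M domain of 440 kb, between an L domain of 1740 kb and an E domain of 300 kb, and only 55.0 kb from that E domain. Of the 5 bins of the gene body 3 were M and 2 were E in MEFs, so that the gene ended in E. *Ikzf1* was also near L domains, the nearest being 545.0 kb away in CH12 cells, 615.0 kb in primary B cells and 385.0 kb in MEFs.

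*Ikzf3* (chr11:98326216-98407345, minus strand) encodes Aiolos, an Ikaros family factor of later B cell stages. Its E domain measured 2820 kb in CH12 cells but 5620 kb in primary B cells and 5660 kb in MEFs, while the start remained 892.7, 912.7 and 872.7 kb from the nearest end. The difference was at the left end, where the domain of primary B cells ran 2780 kb farther. In CH12 cells that stretch held 112 E and 27 M bins, so an M stretch split the domain without making most of it later.

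*Pou2f2* (chr7:25877472-25917507, minus strand) encodes Oct-2, which binds the octamer element of immunoglobulin promoters. It lay in E domains of 1540, 1720 and 1820 kb in CH12 cells, primary B cells and MEFs, at 642.5, 782.5 and 822.5 kb from the nearest end. *Pou2af1* (chr9:51021795-51048184, plus strand) encodes the coactivator OCA-B, which binds Oct-1 and Oct-2 on the octamer. Its E domain measured 2080 kb in CH12 cells, 1020 kb in primary B cells and 1780 kb in MEFs, and its start was 821.8, 198.2 and 218.2 kb from the nearest end. The domain of CH12 cells ran 1060 kb farther at the right end than that of primary B cells, over 53 bins of which 27 were E and 26 were M in primary B cells. The *Pou2af1* start itself was in E in both maps.

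**Figure D2:**
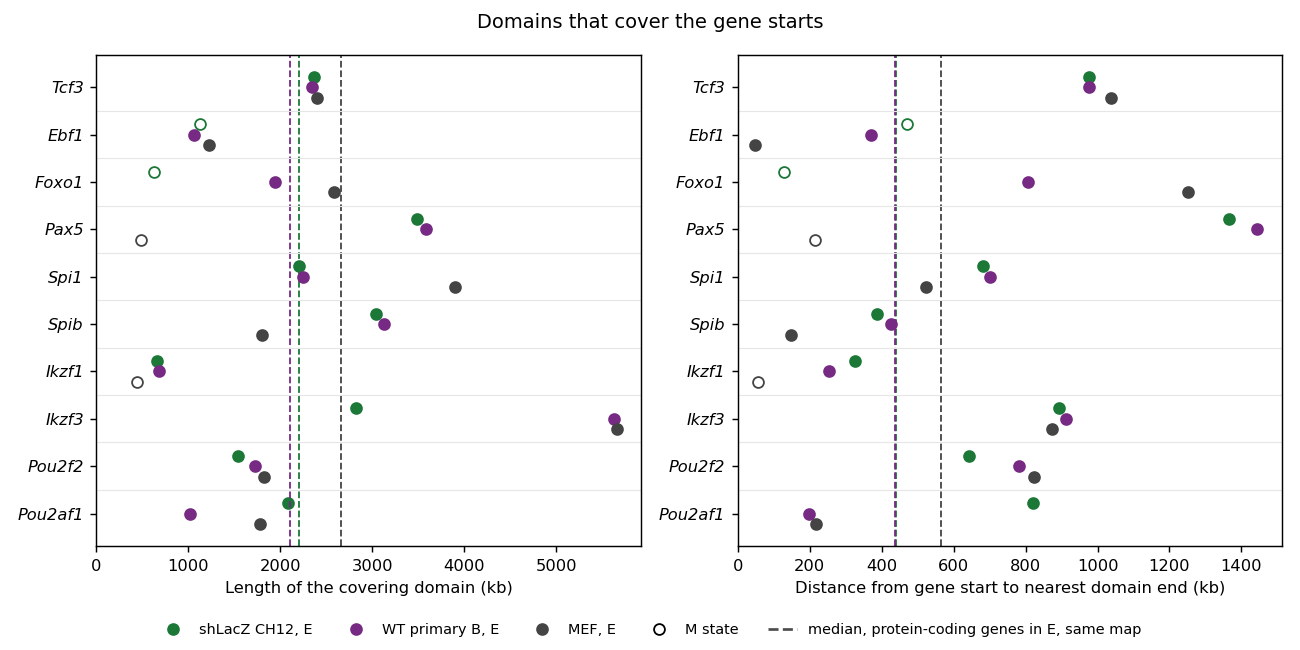
Length of the covering domain (left, kb) and distance from the gene start to the nearest domain end (right, kb) for each gene in each map, with filled points for E, open points for M, and dashed lines at the median of protein-coding genes in E in that map. The 4 open points, *Ebf1* and *Foxo1* in CH12 cells and *Pax5* and *Ikzf1* in MEFs, have lengths between 440 and 1120 kb.

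Among themselves the covering domains differed in length by over 5-fold in each map, from 620 to 3480 kb in CH12 cells, from 680 to 5620 kb in primary B cells and from 440 to 5660 kb in MEFs. The members' median length was 2140 kb in CH12 cells, 2090 kb in primary B cells and 1810 kb in MEFs, beside 1520, 1480 and 2040 kb over all protein-coding genes. Restricted to genes in E, the members' medians were 2280, 2090 and 2110 kb, and those of all protein-coding genes were 2200, 2100 and 2660 kb. The lengths of the members' E domains in the B cell maps were therefore close to those of E genes at large.

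By the median, the members' starts lay deeper in their domains than those of all protein-coding genes in the B cell maps. The median distance to the nearest end over the members was 663 kb in CH12 cells, 743 kb in primary B cells and 370 kb in MEFs, beside 304, 313 and 415 kb over all protein-coding genes. Among genes in E it was 752 and 743 kb for the members in CH12 and primary B cells, beside 440 and 437 kb, and in MEFs it was 673 kb beside 565 kb. The quartiles among genes in E overlapped. They were 579 and 914 kb for the members in CH12 cells, beside 186 and 898 kb. In primary B cells they were 385 and 886 kb, beside 188 and 930 kb. These medians describe 10 genes or fewer and were not tested. Starts within 150 kb of an end, the reach of the smoothing on either side, were *Foxo1* in CH12 cells, none in primary B cells, and *Ebf1*, *Ikzf1* and *Spib* in MEFs, and the state of these starts is the least certain.

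Going from CH12 to primary B cells, 2 of 10 members, *Ebf1* and *Foxo1*, were in an earlier state and 0 were in a later one. Of all protein-coding genes, 18.8% were earlier in primary B cells than in CH12 cells and 2.75% were later, so the members' count is near that background. Of the 12963 protein-coding genes in E in primary B cells, 83.4% were also E in CH12 cells, 15.6% were M and 1.03% were L. The members, all E in primary B cells, divided as 8, 2 and 0.

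Against MEFs, 2 of 10 members, *Pax5* and *Ikzf1*, were earlier in CH12 cells and 2, *Ebf1* and *Foxo1*, were later, beside 6.81% and 23.1% of all protein-coding genes. In primary B cells the same 2 genes, *Pax5* and *Ikzf1*, were earlier than in MEFs and 0 were later, beside 11.8% and 13.2% of all protein-coding genes. Both comparisons use the same MEF map and are not independent of each other. With 10 genes and 1 map per condition, counts of 2 and 0 do not tell the members from the background.

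For the 8 members in E in both B cell maps, the ends of the E domains mostly coincided. The 16 ends shifted by a median of 40 kb, which is 2 bins, and 13 of them by at most 100 kb. Only 2 ends shifted by more than the 300 kb smoothing span, those of *Ikzf3* and *Pou2af1* given above. Between MEFs and CH12 cells the 12 ends of 6 shared members shifted by a median of 210 kb, with 5 over 300 kb, and between MEFs and primary B cells the 16 ends of 8 shared members by 150 kb, with 6 over 300 kb. Shifts below the smoothing span cannot be told from its blur.

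The surroundings of the starts followed the covering domains. Within 500 kb on each side, a window of 51 bins, *Tcf3*, *Ikzf3*, *Spi1* and *Pou2f2* had 100% E bins in all 3 maps. The distances to their domain ends, 522.5 kb or more in each map, already fix this value. *Ebf1* had 0% E bins in CH12 cells, where 49 bins were M and 2 were L, against 86.3% in primary B cells and 54.9% in MEFs. *Foxo1* had 27.5% in CH12 cells and 100% in both other maps.

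*Pax5* had 100% E bins around its start in both B cell maps and 52.9% in MEFs. *Ikzf1* had 64.7% in CH12 cells, 66.7% in primary B cells and 29.4% in MEFs, and *Spib* had 88.2%, 92.2% and 64.7%. *Pou2af1* ran the other way between the B cell maps, with 100% in CH12 cells, 68.6% in primary B cells and 70.6% in MEFs. The members' median was 100% in both B cell maps and 85.3% in MEFs, beside 49.0%, 58.8% and 62.7% over all protein-coding genes. Restricted to genes in E, the members' median was 100% in each map, beside 94.1%, 92.2% and 100% over protein-coding genes.

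**Figure D3:**
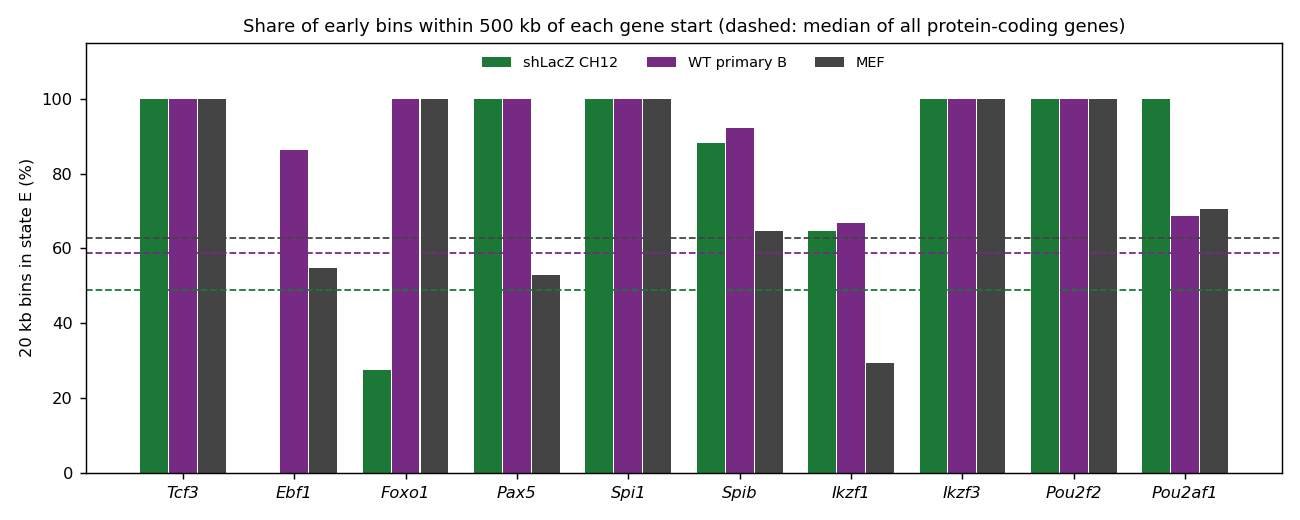
Percent of the 20 kb bins within 500 kb of each gene start that were in E, as 1 bar for each map (green, shLacZ CH12 cells; purple, WT primary B cells; grey, MEFs), with dashed lines at the medians of all protein-coding genes. *Ebf1* has 0% in CH12 cells, shown as a missing bar, and 86.3% in primary B cells.

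The runs of bins that shared a member's pattern across the 3 maps spanned from 380 to 620 kb and held from 1 to 3 other protein-coding starts. Around *Pax5* the run spanned 480 kb (chr4:44460001-44940000) with 1 other protein-coding start, *Zcchc7*, 44.4 kb away. Around *Ikzf1* it spanned 380 kb (chr11:11260001-11640000) with *4930512M02Rik*, *Zpbp* and *4930415F15Rik*. Around *Ebf1* it spanned 420 kb (chr11:44060001-44480000) with *Rnf145*, *Ublcp1* and *Il12b*, the last of which encodes the p40 subunit shared by IL-12 and IL-23. Around *Foxo1* it spanned 620 kb (chr3:51580001-52200000) with *Maml3*, a Notch coactivator gene. Since RT was smoothed over 300 kb, a difference limited to a gene start would be weakened and may be missed in these maps.

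No domain held more than 1 member, so the 10 genes are separate places in each map. The nearest pair on a chromosome was *Pou2f2* and *Spib*, 25.9 Mb apart on chromosome 7, and *Ikzf1*, *Ebf1* and *Ikzf3* all lie on chromosome 11 with 32.8 Mb or more between them.

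The members were longer than most genes, with a median length of 60.6 kb beside 15.4 kb over all protein-coding genes, and ranged from 6.08 kb for *Spib* to 391 kb for *Ebf1*. They had a median of 19 other protein-coding starts within 500 kb, beside 15 over all protein-coding genes and 22 over those in E in all 3 maps. The 4 members whose state differed between maps were the 4 with the fewest such neighbours: *Foxo1* had 2, *Ebf1* 3, *Ikzf1* 6 and *Pax5* 11, while the other 6 had from 16 for *Pou2af1* to 56 for *Tcf3*. They were also the 4 longest genes of the set, at 390.8 kb for *Ebf1*, 180.3 kb for *Pax5*, 87.9 kb for *Ikzf1* and 81.8 kb for *Foxo1*, with *Ikzf3* next at 81.1 kb. This ordering was seen after the states were known and was not tested.

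The CpG ratio, the number of CG dinucleotides over that expected from the C and G content, was taken from 250 bases before to 50 bases after the start. It was highest at *Foxo1* (1.10), *Tcf3* (0.98) and *Ikzf3* (0.81) and lowest at *Spi1* (0.17) and *Spib* (0.08). Its median was 0.421 over the members, 0.534 over all protein-coding genes and 0.673 over those in E in all 3 maps. *Spi1* was thus in E in all 3 maps with a CpG ratio near 0.155, the median of genes in L in all 3 maps, and *Spib* with one below it. These ratios describe only the annotated gene start. The farthest protein-coding transcript start was 14.4 kb from it for *Spi1*, 34.7 kb for *Pou2f2*, 15.2 kb for *Ikzf1* and 11.8 kb for *Tcf3*. The CpG ratio at such other starts was not taken.

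The listed relatives of the members from the same gene families were in E in about as many cases as protein-coding genes at large. The list leaves out some relatives, such as *Pax3*, *Pax6* and *Pax7*, which were counted among factors of tissues other than blood. Of 16 family paralogs 9 were in E in CH12 cells, 9 in primary B cells and 8 in MEFs, shares of 56.2%, 56.2% and 50.0%. *Pax2*, *Ebf4*, *Tcf12*, *Ikzf4*, *Foxo3* and *Foxo6* were in E in all 3 maps. *Tcf4*, *Ikzf5* and *Spic* were in M in all 3. *Ikzf2*, which encodes Helios of T cells, was in L in both B cell maps and in M in MEFs.

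The remaining 6 paralogs also differed in state between maps. *Ebf2*, known from fat and bone cells, was in M in both B cell maps and in E in MEFs, and *Ebf3* was in E in CH12 cells and in M in both others. *Pax8*, a thyroid and kidney factor, was in E in primary B cells and in M in both others. *Foxo4* and *Pou2f1*, which encodes the broadly expressed Oct-1, were in E in both B cell maps and in M in MEFs, as *Pax5* and *Ikzf1* were. Unlike these, *Foxo4* lies on the X chromosome, and its M domain in MEFs measured 4280 kb. *Pou2f3*, a factor of tuft cells, was in M in both B cell maps and in E in MEFs.

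Of 38 other factors with roles in B cells, 34 were in E in CH12 cells, 37 in primary B cells and 29 in MEFs, shares of 89.5%, 97.4% and 76.3% beside the 50.6%, 58.0% and 58.6% of all protein-coding genes. From CH12 to primary B cells 4 of the 38 were earlier and 1 was later, beside 18.8% and 2.75% of all protein-coding genes. Against MEFs 8 were earlier and 3 later in CH12 cells, beside 6.81% and 23.1%, and 9 were earlier and 1 later in primary B cells, beside 11.8% and 13.2%. This list was chosen with earlier results of these data known, some of its genes share a domain, and the counts were not tested. *Bcl6*, the master factor of germinal centre B cells, was the only one in E in one map and in L in another: it was in L in CH12 cells, 268.9 kb from the nearest end of a domain of 1480 kb, and in E in primary B cells and MEFs.

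**Figure D4:**
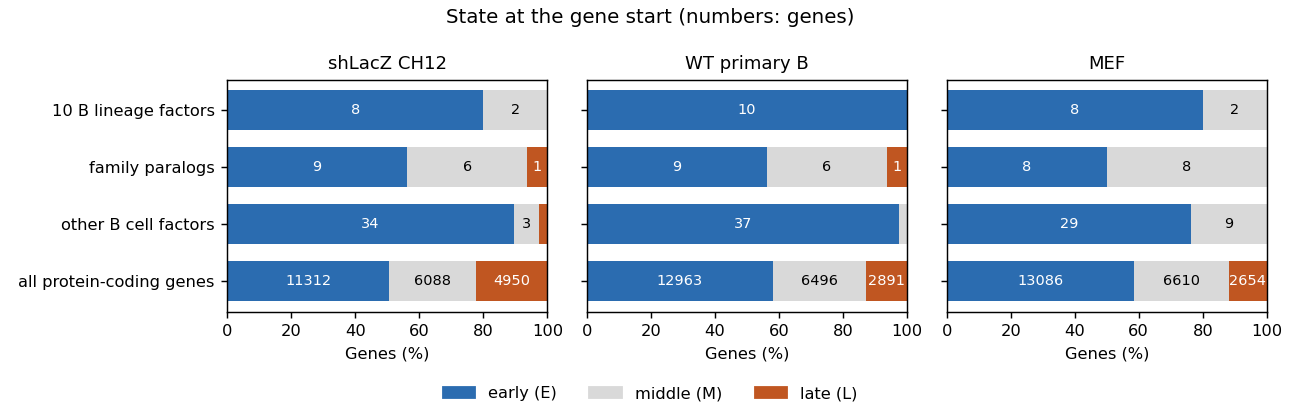
Percent of genes with their start in E, M or L in each map, with the numbers of genes printed in the bars, for the 10 B lineage factors, 16 family paralogs, 38 other B cell factors and all 22350 protein-coding genes. All 10 B lineage factors, 37 of 38 other B cell factors and 9 of the 16 paralogs listed are in E in primary B cells. The lists were chosen with earlier results of these data known.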

How the data were processed

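Domain maps of shLacZ CH12 cells, WT primary B cells and MEFs were used. The authors trimmed reads with Trim Galore 0.6.5, aligned them to mm9 with BWA 0.7.17, kept unique alignments with SAMtools 1.9, merged replicates and removed duplicates. They took log2 early over late ratios in 20 kb windows, smoothed them over 300 kb and called 3 states with a hidden Markov model. The deposited maps give each domain's start, end and state number as the authors assigned it, with no RT value or depth. The study takes its MEF Repli-seq from an earlier public data set. Merging removes replicate error, and states were called separately in each map, so the RT that divides them can differ.

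State numbers 2, 1 and 0 were read as E, M and L in the B cell maps, and 0, 2 and 1 in the MEF map. All 20 chromosomes ended at their NCBIM37 length. Genes came from GENCODE M1. The members and lists were chosen with earlier results of these data known. All 10 members are named with values. Other genes are named where they lie in a member's pattern run, where they are paralogs, or where they are E in one map and L in another. Alternatives concerned placement, short domains, windows and backgrounds. Functions passed 8 of 8 checks on simulated data. Python 3.11.15, numpy 2.4.6, pandas 2.3.3 and matplotlib 3.10.9 were used.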

Additional observations from a re-analysis of the deposited data

How the results depend on the processing

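No paired analysis was possible because each deposited map pools its replicates. Across 35 results on the members and lists, 71 of 74 values under another setting stayed within 1.5 times of the reported one. This limit is wide for counts this small, since 3 in place of 2 stays within it. Members earlier in CH12 cells than in MEFs numbered 1 (*Pax5*) in place of 2 when genes were placed by their end, since *Ikzf1* ends in E in MEFs. Members later in CH12 cells than in MEFs numbered 1 (*Foxo1*) in place of 2 by the gene end and 1 by the most common state of the gene body, since most of *Ebf1* is M in MEFs. By the gene body, members earlier in primary B cells than in MEFs numbered 3, with *Ebf1* added, and by the gene end they remained 2 in number but were *Ebf1* and *Pax5*, without *Ikzf1*. All 78 background values stayed within 1.5 times. Absorbing domains under 100 kb, joining E domains across 40 kb, other windows and other transcript starts moved no value by more. Depth is unknown, and precision is limited by the 20 kb bins, the 300 kb smoothing and the single map per condition.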

Other observations

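Of 21 factors of other blood lineages, 14 (66.7%) were in E in CH12 cells, 13 (61.9%) in primary B cells and 15 (71.4%) in MEFs, beside 50.6%, 58.0% and 58.6% of all protein-coding genes. Against MEFs, 3 of the 21 were earlier and 3 later in CH12 cells, beside 6.81% and 23.1% of all protein-coding genes. In primary B cells 3 were earlier and 4 later than in MEFs, beside 11.8% and 13.2%. The earlier genes were the same in both comparisons, and most of them share a domain of the X chromosome in each map. Of 30 factors of tissues other than blood, 12 (40.0%) were in E in CH12 cells, 12 (40.0%) in primary B cells and 15 (50.0%) in MEFs. In L were 9 of these 30 in CH12 cells, 3 in primary B cells and 0 in MEFs, beside 22.1%, 12.9% and 11.9% of all protein-coding genes. *Prrx1*, a mesenchymal factor, was in L in both B cell maps and in E in MEFs. These counts were not tested.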
